A study of Mus musculus with 19 samples.

Results

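Keratins of stratified epithelium were followed across epithelium and mesenchyme of 2 embryonic mouse tissues, the urogenital sinus and the skin. The members are 10 genes, Krt5, Krt14, Krt15, Krt4, Krt13, Krt6a, Krt17, Krt1, Krt10 and Krt77, taken by name from the probe annotation, of 17360 genes tested in all. All 10 had a tested probe set. They were represented by 18 probe sets of their own, with 5 genes having several and 5 having 1, and by 1 further probe set that carries both the Krt14 and the Krt17 symbol.

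All samples came from C57BL/6 embryos of embryonic day 16, each one a pool of tissue from many embryos, measured on a MOE430 2.0 microarray. Urogenital sinus epithelium (UGE, 6 samples) and urogenital sinus mesenchyme (UGM, 5 samples) were parted with trypsin. Epidermis (4 samples) and dermis (4 samples) of the back skin were parted by hand after a night in dispase, so the site and the separation method cannot be told apart. The purpose of the skin samples was to show which differences between UGE and UGM are shared by another embryonic epithelium and its mesenchyme. Skin and urogenital sinus were taken from the same embryos, so an embryo can have given tissue to more than 1 group, and no group carries a transgene or a treatment.

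Keratins are the intermediate filament proteins of epithelial cells. A type I keratin pairs with a type II keratin, and the pairs assemble into filaments that are anchored at desmosomes and hemidesmosomes. In stratified epithelium the pair changes with the layer: Krt5 and Krt14 are the pair of the basal layer, Krt1 and Krt10 replace them above it in the epidermis, and Krt4 and Krt13 take that place in internal epithelia such as the oesophagus. Krt15 is a further basal type I keratin, Krt6a and Krt17 belong to skin appendages, periderm and stressed epithelium, and Krt77 is a type II keratin of suprabasal epidermis and sweat ducts. The urogenital sinus epithelium gives rise to the prostate, whose basal cells are known for Krt5 and Krt14.

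In the RefSeq annotation of GRCm38.p6 the type I members Krt10, Krt13, Krt14, Krt15 and Krt17 lie among 27 keratin genes of chromosome 11 and the type II members Krt1, Krt4, Krt5, Krt6a and Krt77 among 26 keratin genes of chromosome 15. Within these clusters Krt13 is next to Krt15, Krt6a is next to Krt5, and Krt1 is next to Krt77. RefSeq promoter windows, 6 in all, were found for 5 of 10 members, Krt5, Krt10, Krt13, Krt14 and Krt77, with 2 for Krt13, whose inner start lies inside the gene. The 250 bases before the annotated start are shown for 4 members, for Krt13 at its outer start, which stand for the patterns described here: a basal keratin of both epithelia, 2 suprabasal keratins of the skin and the internal keratin that was low in UGE. All 4 windows are from GRCm38.p6, on the minus strand, and read 5′ to 3′ toward the start. The Krt5 window is chr15:101712906-101713155, the Krt77 window chr15:101869706-101869955, the Krt10 window chr11:99389365-99389614 and the Krt13 window chr11:100121567-100121816. For Krt5, Krt77 and the Krt13 window shown the start lies at the outer end of the annotated gene, while the start used for Krt10 lies inside it. Capitals mark matches, searched on both strands, to the TATA-like words TATAAA, then TATATA and further ATAAAAG, and to the AP-1 core TGANTCA.
Krt5: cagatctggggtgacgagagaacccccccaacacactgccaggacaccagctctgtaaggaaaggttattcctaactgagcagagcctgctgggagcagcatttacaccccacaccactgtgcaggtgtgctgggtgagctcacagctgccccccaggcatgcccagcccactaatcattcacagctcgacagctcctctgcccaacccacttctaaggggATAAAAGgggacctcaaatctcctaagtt
Krt77: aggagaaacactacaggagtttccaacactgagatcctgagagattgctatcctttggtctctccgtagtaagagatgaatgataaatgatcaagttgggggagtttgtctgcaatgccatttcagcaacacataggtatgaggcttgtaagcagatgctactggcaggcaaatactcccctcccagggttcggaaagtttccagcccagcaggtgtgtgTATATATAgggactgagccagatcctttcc
Krt10: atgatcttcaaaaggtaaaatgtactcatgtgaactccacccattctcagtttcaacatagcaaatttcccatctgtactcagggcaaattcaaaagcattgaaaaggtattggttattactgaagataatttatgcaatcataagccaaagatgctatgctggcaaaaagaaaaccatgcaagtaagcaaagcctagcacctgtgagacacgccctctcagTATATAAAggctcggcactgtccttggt
Krt13: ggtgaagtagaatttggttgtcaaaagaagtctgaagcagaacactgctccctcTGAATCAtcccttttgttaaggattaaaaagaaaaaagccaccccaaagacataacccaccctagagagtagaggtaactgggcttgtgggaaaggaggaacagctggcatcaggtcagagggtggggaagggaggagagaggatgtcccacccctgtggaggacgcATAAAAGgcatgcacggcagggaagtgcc
Runs like the TATA box were found in the 4 windows shown, and none of the 3 words searched was found in the Krt14 window or in the inner Krt13 window. The start used for Krt14 is 1480 bases from the outer end of the annotated gene, and no Krt14 window at that end was searched. ATAAAAG began 29 bases before the start in both Krt5 and Krt13, and 4.83% of 32851 RefSeq windows of this length hold it. TATATA began 28 bases before the start of Krt10, overlapping TATAAA there, and 30 and 28 bases before the start of Krt77, and 5.25% of all windows hold it (TATAAA is held by 12.4%). The core TGANTCA that AP-1 factors bind was found in the outer Krt13 window, 196 bases before the start, in the inner Krt13 window, 183 and 34 bases before that start, and in 6.75% of all windows. The core GCCNNNGGC of AP-2 sites was also searched, as was the GC box with its letters GGGCGG, and neither had a match in the 6 windows, against 13.7% and 32.7% of all windows. These matches are a description of the letters only.

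Marker lists separated the labelled compartments, with limits that touch the keratins. The median log2 intensity of 12 general epithelial markers such as Cdh1 and Epcam was 10.95 to 11.40 in UGE against 6.06 to 7.36 in UGM, and 10.06 to 10.38 in epidermis against 7.85 to 9.07 in dermis. The median of 16 mesenchymal markers was 6.19 to 10.26 in UGE against 11.87 to 12.26 in UGM, and 8.70 to 10.52 in epidermis against 12.28 to 12.78 in dermis, with UGE replicates 2 and 3 at 10.23 and 10.26 and the other UGE samples at or below 7.71. UGM replicate 2 had the highest epithelial median of its group (7.36, the others 6.06 to 6.91) and the highest value of 7 of the 10 keratins. Dermis replicate 1 had the highest epithelial median of its group (9.07, the others 7.85 to 8.27) and the highest value of all 10 keratins, and dermis replicate 2 the lowest epithelial median and the lowest value of 9. All 8 endothelial markers were lower in UGE than in UGM and in epidermis than in dermis, and all 8 skeletal muscle markers were lower in epidermis than in dermis. Of 7 melanocyte markers 4 were higher in epidermis than in dermis and none was lower. In these bulk samples fewer cells of a type and less RNA per cell cannot be told apart.

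**Figure D1:**
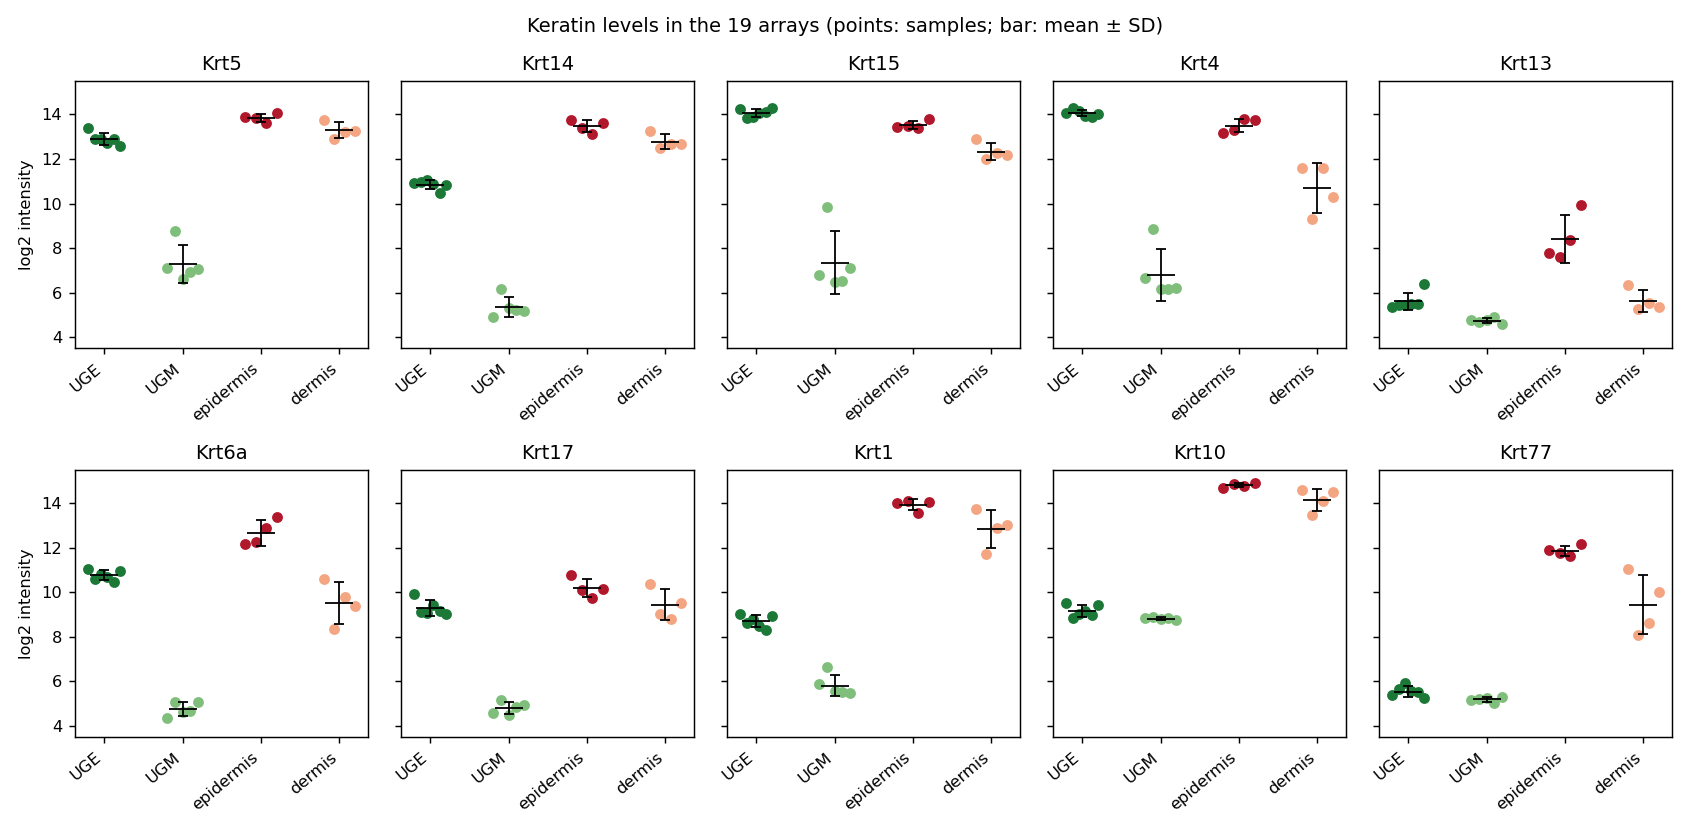
Log2 intensity (vertical axis) of each keratin in UGE, UGM, epidermis and dermis, with a point for each of the 19 samples and a bar for the mean ± SD, by the brightest tested probe set of the gene. Krt5, Krt14 and Krt15 are low in UGM alone, Krt4 is highest in UGE (mean 14.05), and Krt13 lies above 7.5 in epidermis alone. Krt10 and Krt77 are high in both skin groups. In the urogenital sinus groups both are lower, Krt10 at 8.74 to 9.50 and Krt77 at 5.04 to 5.92.

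Between UGE and UGM 7 of the 10 keratins were higher in the epithelium and none was lower, and in the skin 5 were higher in the epidermis and none was lower. A keratin is called higher or lower here at an adjusted p under 0.01 with a fold over 2, by limma with Benjamini-Hochberg adjustment over all 41549 tested probe sets. With the methods' t-test 1 of the 5 skin calls, that of Krt6a, was kept, and with limma's treat, which tests for more than 2-fold, 0 were (4 at an unadjusted p under 0.05). By the rule used here 6.75% of all genes were higher in UGE and 5.84% higher in epidermis. The median log2 fold change of the members was 4.99 for UGE over UGM (0.02 over all genes tested) and 1.14 for epidermis over dermis (0.01 over all genes tested). The SE of a fold change is given after ±, with n = 6 and 5 in the urogenital sinus and n = 4 and 4 in the skin. The samples are pools, and p-values measure the spread between these pools.

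**Figure D2:**
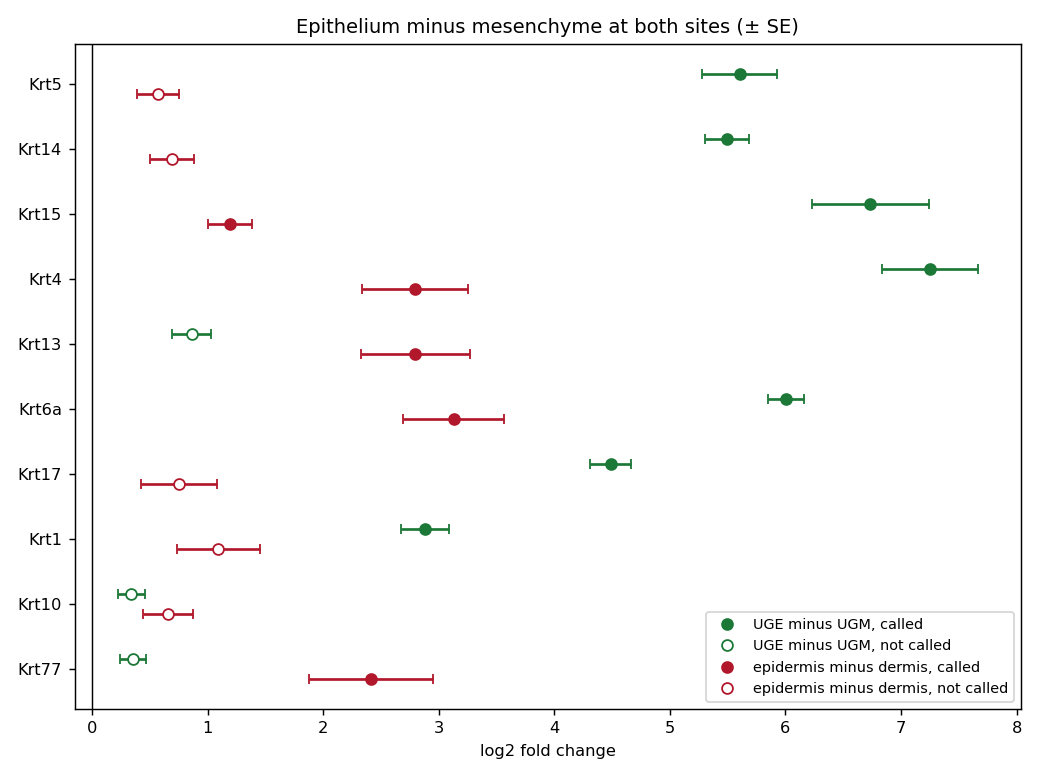
Log2 fold change ± SE (horizontal axis) of each keratin for UGE minus UGM (green) and epidermis minus dermis (red), filled where called and open where not. The green points of Krt5, Krt14, Krt15, Krt4, Krt6a, Krt17 and Krt1 lie to the right of the red ones, and those of Krt13, Krt10 and Krt77 to the left.

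The basal keratins were strongly expressed in both epithelia, and separated UGE from UGM far more than epidermis from dermis. Krt5, the basal type II keratin, ran from 12.59 to 13.40 with a median of 12.89 in UGE, against 7.11, 8.78, 6.62, 6.93 and 7.05 in UGM replicates 1 to 5. It was at 13.90, 13.83, 13.62 and 14.07 in epidermis replicates 1 to 4, against 13.76, 12.91, 13.19 and 13.27 in dermis. The UGE and UGM ranges lie more than 3 log2 units apart, whereas the highest dermis sample lies within the epidermis range. Krt5 was thus 48.6-fold higher in UGE than in UGM (5.60 ± 0.32 log2, adjusted p = 4.22e-08), and its difference of 0.57 ± 0.18 in the skin was not called (adjusted p = 0.0317). Krt5 differed between UGE and epidermis by -0.95 ± 0.30 with no overlap of the samples. This was under 2-fold and so not called either (adjusted p = 0.0168 by limma, with the SE from the fit of all 4 groups).

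Krt14, the type I partner of Krt5, differed from it in UGE. It ran from 10.49 to 11.05 with a median of 10.91 in UGE, against 4.90, 6.15, 5.30, 5.25 and 5.20 in UGM, where the lower quartile of the log2 values of an array lay between 4.70 and 4.92. In the skin it was at 13.74, 13.39, 13.12 and 13.63 in epidermis, against 13.28, 12.51, 12.68 and 12.68 in dermis. All UGE samples were below all skin samples, and UGE was lower than epidermis by 6.14-fold (-2.62 ± 0.20, adjusted p = 4.92e-09). With UGM values near the lower quartile of the arrays, Krt14 was 45.1-fold higher in UGE than in UGM (5.49 ± 0.19, adjusted p = 6.82e-10), while its skin difference of 0.69 ± 0.19 was not called (adjusted p = 0.0184).

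Krt15, the other basal type I keratin, had its highest values in UGE. It ran from 13.85 to 14.29 with a median of 14.10 in UGE, against 6.79, 9.85, 6.50, 6.51 and 7.10 in UGM. In epidermis it was at 13.42, 13.48, 13.40 and 13.80, against 12.90, 12.00, 12.27 and 12.16 in dermis. Neither pair overlapped, and every UGE sample was above every epidermis sample. This difference of 0.56 ± 0.45 was under 2-fold and so not called (adjusted p = 0.359 by limma). Its SE comes from the fit of all 4 groups, where the SD was 1.42 in UGM against 0.18 in UGE and 0.19 in epidermis. Krt15 was the only basal keratin called in the skin, at 1.19 ± 0.19 (2.29-fold, adjusted p = 0.000879). That call was lost when all 4 groups shared 1 fit (adjusted p = 0.0728).

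Among the keratins of internal stratified epithelium, Krt4 was abundant in UGE while its type I partner Krt13 was low there. Krt4 ran from 13.90 to 14.28 with a median of 14.05 in UGE, against 6.65, 8.84, 6.17, 6.15 and 6.20 in UGM. In epidermis it was at 13.19, 13.30, 13.78 and 13.73, against 11.60, 9.31, 11.60 and 10.30 in dermis. Krt4 separated both epithelia from their mesenchyme without overlap, by 7.25 ± 0.41 in the urogenital sinus, the largest of the 10 differences there, and by 2.80 ± 0.46 in the skin (6.95-fold, adjusted p = 0.00103 by limma, 0.0159 with the methods' t-test and 0.0322 with treat). Without UGM replicate 2 the difference of UGE and UGM was 7.76, and Krt5, Krt14 and Krt15 then differed by 5.97, 5.69 and 7.36.

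Krt13 ran from 5.36 to 6.41 with a median of 5.48 in UGE, against 4.79, 4.68, 4.78, 4.91 and 4.60 in UGM. In epidermis it was at 7.80, 7.58, 8.38 and 9.96, against 6.36, 5.26, 5.54 and 5.36 in dermis. With the lower quartile of the arrays at 4.70 to 4.92, the UGM values are not shown to be above background. All UGE samples were above all UGM samples, but the difference of 0.86 ± 0.17 was under 2-fold (adjusted p = 0.00167) and not called. In the skin Krt13 was higher in epidermis by 2.80 ± 0.47 (6.95-fold, adjusted p = 0.00121 by limma, 0.0173 with the methods' t-test and 0.0367 with treat), with epidermis replicate 4 well above the other epidermis samples, and UGE was lower than epidermis by 7.04-fold (-2.81 ± 0.34, adjusted p = 2.48e-06).

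Krt6a and Krt17, the keratins of periderm, appendages and stress, were higher in UGE than in UGM, and only Krt6a was called in the skin. Krt6a ran from 10.46 to 11.06 with a median of 10.75 in UGE, against 4.34, 5.07, 4.61, 4.65 and 5.08 in UGM, where the values are close to the lower quartile of the arrays. In epidermis it was at 12.15, 12.26, 12.87 and 13.37, against 10.59, 8.34, 9.80 and 9.39 in dermis. No groups overlapped within a site, and Krt6a was higher by 6.01 ± 0.15 in UGE and by 3.13 ± 0.44 in epidermis (8.76-fold, adjusted p = 0.000392). Krt6a was lower in UGE than in epidermis by 3.74-fold (-1.90 ± 0.32, adjusted p = 9.04e-05).

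Krt17, a type I keratin, ran from 9.03 to 9.93 with a median of 9.14 in UGE, against 4.56, 5.17, 4.50, 4.85 and 4.95 in UGM. In epidermis it was at 10.77, 10.11, 9.75 and 10.14, against 10.37, 9.02, 8.82 and 9.54 in dermis. UGE and UGM were 22.4-fold apart (4.49 ± 0.18, adjusted p = 1.79e-09), and epidermis and dermis overlapped, with a difference of 0.76 ± 0.33 that was not called (adjusted p = 0.108). Without dermis replicate 1, which held the highest dermis value, the difference was 1.07 and was called (adjusted p = 0.00988).

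The suprabasal epidermal keratins had another pattern, in which each difference between the sites was larger than each difference between the compartments. Krt1, the suprabasal type II keratin, ran from 8.31 to 9.04 with a median of 8.71 in UGE, against 5.88, 6.63, 5.57, 5.54 and 5.47 in UGM. It was at 14.02, 14.09, 13.55 and 14.06 in epidermis, against 13.75, 11.70, 12.88 and 13.03 in dermis. UGE stood clear of UGM (7.36-fold, 2.88 ± 0.21, adjusted p = 3.45e-07), but far below epidermis (37.7-fold lower, -5.23 ± 0.29, adjusted p = 6.67e-11). In the skin the difference of 1.09 ± 0.36 was not called (adjusted p = 0.0385), and without dermis replicate 1 it was called (adjusted p = 0.00668).

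Krt10, the type I partner of Krt1, ran from 8.83 to 9.50 with a median of 9.10 in UGE, against 8.83, 8.89, 8.78, 8.85 and 8.74 in UGM. It was at 14.70, 14.85, 14.78 and 14.91 in epidermis, against 14.58, 13.47, 14.08 and 14.49 in dermis. The urogenital sinus groups overlapped and differed by 0.34 ± 0.12 (adjusted p = 0.0428), so that Krt1 was called there and its partner Krt10 was not. UGE was 50.3-fold lower than epidermis (-5.65 ± 0.17, adjusted p = 1.85e-14). In epidermis Krt10 lay only 0.11 to 0.21 below the brightest value of its array, so a difference of 0.66 ± 0.22 to dermis (adjusted p = 0.0399) was read near the top of the scale.

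Krt77, the other suprabasal type II keratin, ran from 5.25 to 5.92 with a median of 5.53 in UGE, against 5.16, 5.20, 5.25, 5.04 and 5.31 in UGM. It was at 11.89, 11.77, 11.64 and 12.16 in epidermis, against 11.07, 8.10, 8.63 and 10.02 in dermis. The urogenital sinus groups overlapped at a low level (0.35 ± 0.12, adjusted p = 0.0306), while epidermis was above all dermis samples by 2.41 ± 0.54 (5.33-fold, adjusted p = 0.00615). This skin call rested on the full set of samples: it was lost without any of epidermis replicates 2, 3 and 4 or dermis replicates 2, 3 and 4 (differences of 1.96 to 2.60, adjusted p = 0.0107 to 0.0212 by limma) and held without either replicate 1. UGE was 79.7-fold lower than epidermis (-6.32 ± 0.37, adjusted p = 1.18e-10), with the UGE values at a low level where a fold is not exact.

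Set across sites, none of the 10 keratins was called higher in the urogenital sinus by limma. Across all 41549 tested probe sets 2902 were called higher in UGE than in epidermis and 2818 in UGM than in dermis. At such shares a count of none among 10 genes says little about the keratins. Of the 10 members 6 were lower in UGE than in epidermis, where 6.12% of all genes were lower, and 9 were lower in UGM than in dermis, where 7.00% were lower. The 6 are Krt14, Krt13, Krt6a, Krt1, Krt10 and Krt77. Those not called are Krt5, Krt15, Krt4 and Krt17 (-0.90 ± 0.26, adjusted p = 0.0111), each under 2-fold and with an adjusted p over 0.01. Krt17 was called without UGE replicate 1 or without epidermis replicate 3, at -1.03 and -1.05. The median difference of the members was -2.26 for UGE minus epidermis and -4.88 for UGM minus dermis, against -0.04 and -0.07 over all genes tested.

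**Figure D3:**
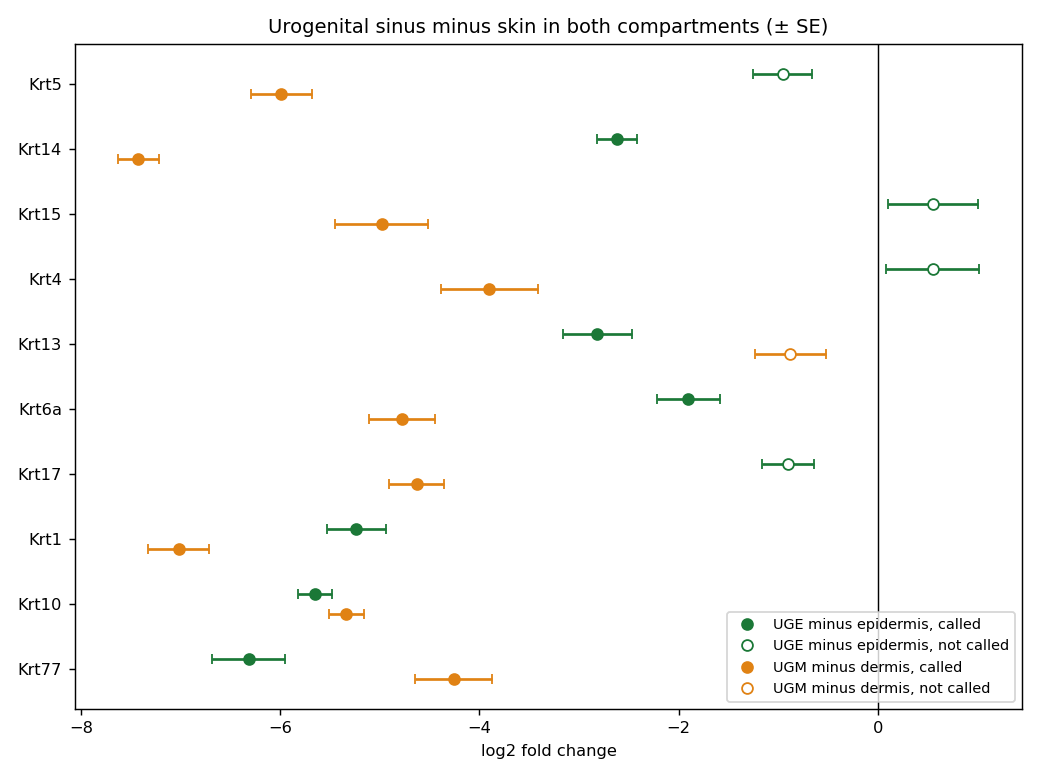
Log2 fold change ± SE (horizontal axis) of each keratin for UGE minus epidermis (green) and UGM minus dermis (orange), filled where called and open where not. Krt15 and Krt4 alone lie right of 0 in the epithelial comparison (0.56 and 0.55, not called), and all 10 lie left of 0 between the mesenchymes, with Krt13 at -0.88 not called.

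Between the mesenchymes Krt14 was at 5.36 ± 0.47 in UGM and 12.79 ± 0.34 in dermis (SD, n = 5 and 4), or -7.42 ± 0.21 as a log2 fold change (adjusted p = 6.05e-15), with UGM values near the lower quartile of the arrays. Krt1 differed by -7.02 ± 0.31 and Krt5 by -5.99 ± 0.31. Krt13 was not called (-0.88 ± 0.36, adjusted p = 0.0626). Dermis holds epithelial marker transcripts as well, with 8 of the 12 general epithelial markers lower in UGM than in dermis (median difference -2.05) and 1 higher. How much of the keratin signal of dermis comes with epidermal cells was not tested.

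**Figure D4:**
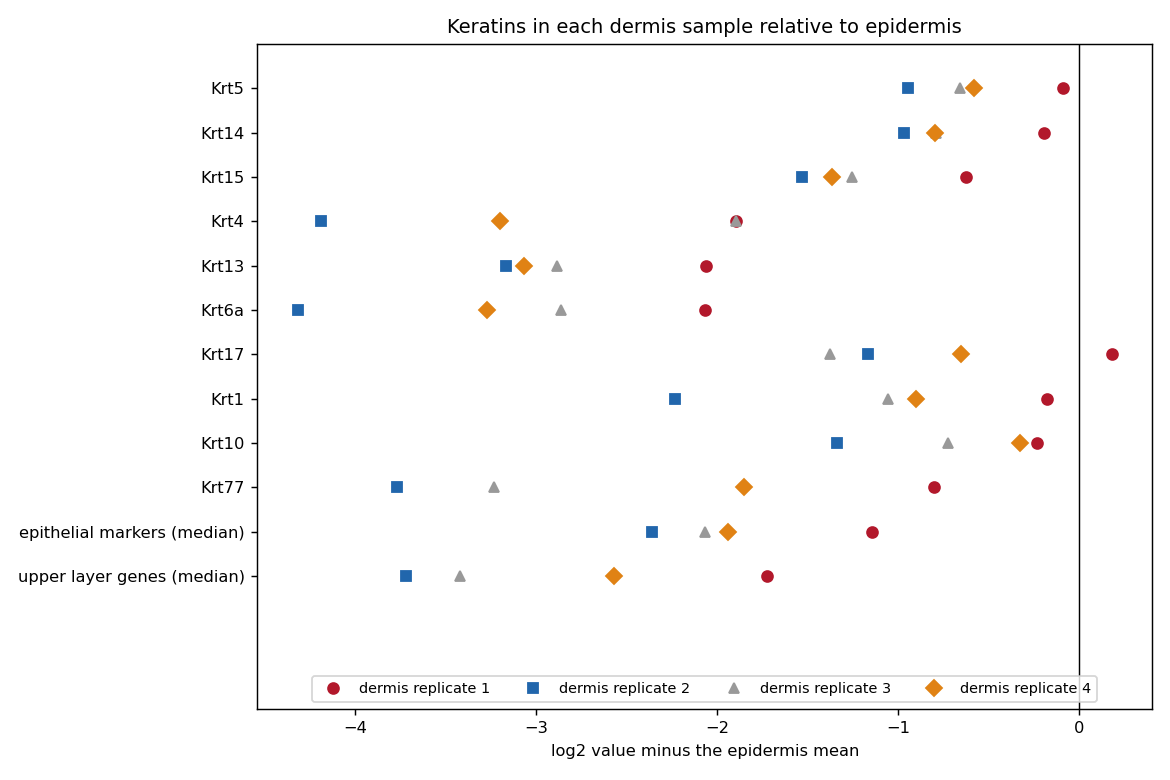
Log2 value of each dermis sample minus the epidermis mean (horizontal axis) for the 10 keratins and for the medians of 12 general epithelial markers and 15 upper layer genes. Dermis replicate 1 lies furthest right for each keratin, level with replicate 3 for Krt4, and for both lists, and Krt5, Krt14 and Krt10 lie closer to 0 than Krt4, Krt13, Krt6a and Krt77.

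The dermis samples did not fall below epidermis by the same amount for each keratin. In dermis replicate 2, the sample with the lowest epithelial markers, the difference to the epidermis mean was -0.95 for Krt5 and -0.97 for Krt14, whereas it was -4.19 for Krt4, -4.32 for Krt6a and -3.77 for Krt77. In dermis replicate 1 it was -0.09 for Krt5, -0.19 for Krt14, -1.90 for Krt4, -2.07 for Krt6a and -0.80 for Krt77. For the general epithelial marker median the difference was -1.15 in dermis replicate 1 and -2.36, -2.07 and -1.94 in replicates 2 to 4. For the median of the upper layer genes it was -1.72 in replicate 1 and -3.72, -3.42 and -2.57 in replicates 2 to 4. In both lists replicate 1 was highest and replicate 2 lowest, as for every keratin but Krt17. That keratin was lowest in replicate 3. In epidermis Krt5 lay 0.95 to 1.38, Krt14 1.13 to 1.87 and Krt1 0.86 to 1.44 below the brightest value of the array. Krt4 lay 1.21 to 1.69 below it, Krt6a 1.65 to 2.73 and Krt77 2.86 to 3.36. Whether the top of the scale made some of these differences smaller was not tested.

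The compartment difference itself differed between the sites for 9 of the 10 keratins, by the interaction of site and compartment, which is UGE minus UGM less epidermis minus dermis. It was positive for 7, against 7.53% of all genes, and negative for 2, against 5.41%. The positive ones were Krt15 (5.54 ± 0.65), Krt5 (5.03 ± 0.43), Krt14 (4.81 ± 0.29), Krt4 (4.45 ± 0.67), Krt17 (3.73 ± 0.38), Krt6a (2.88 ± 0.46) and Krt1 (1.79 ± 0.42, adjusted p = 0.0047). The negative ones were Krt13 (-1.94 ± 0.50, adjusted p = 0.00817) and Krt77 (-2.06 ± 0.53, adjusted p = 0.00902), and Krt10 was not called (-0.32 ± 0.24, adjusted p = 0.46). The calls of Krt5, Krt14, Krt15, Krt4, Krt6a and Krt17 held without each single sample. With 1 sample left out in turn, Krt13 was still called in 5, Krt77 in 3 and Krt1 in 13 of 19 fits. With the replicate number as a block the calls of Krt1 (1.74, adjusted p = 0.014) and Krt77 (adjusted p = 0.026) were lost. Of the dermis samples that enter this contrast, replicate 1 had the highest value of all 10 keratins and the highest epithelial median. Replicates 3 and 4 were not in the same order for each keratin, with replicate 3 above replicate 4 for Krt4 and below it for Krt1. Whether epithelial cells in dermis shape the contrast was not tested.

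The other probe sets of a gene gave like differences for Krt4, the same skin call for Krt13, and unlike differences for Krt6a. The second Krt4 probe set differed by 6.58 ± 0.37 between UGE and UGM and by 2.76 ± 0.40 in the skin. The 2 other Krt13 probe sets were called higher in epidermis (1.91 ± 0.34 and 1.77 ± 0.31), and their interactions were -1.63 and -1.57 (adjusted p = 0.00161 and 0.00151). Between UGE and UGM these 2 overlapped, at 0.28 ± 0.09 and 0.21 ± 0.11 (adjusted p = 0.0329 and 0.186 by limma), unlike the brightest Krt13 probe set. The 2 other Krt6a probe sets had lower fold changes between UGE and UGM, 2.58 ± 0.16 and 2.34 ± 0.10 against 6.01 ± 0.15, with like ones in the skin, 3.04 ± 0.43 and 2.48 ± 0.30 against 3.13 ± 0.44. Their interactions were -0.46 (adjusted p = 0.593) and -0.14 (adjusted p = 0.841), and with the probe sets of a gene averaged the Krt6a interaction was 0.76 (adjusted p = 0.217). The larger compartment difference of Krt6a in the urogenital sinus therefore holds for 1 of its 3 probe sets, and Krt6b, a near copy of Krt6a, makes the source of their signal uncertain.

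**Figure D5:**
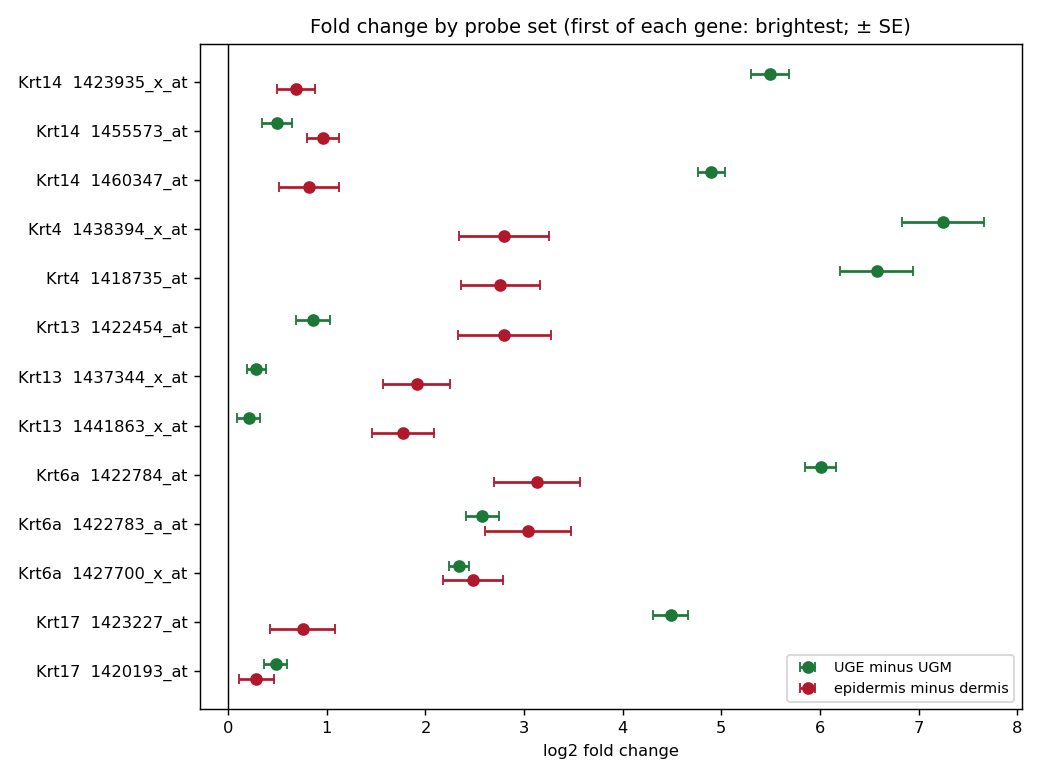
Log2 fold change ± SE (horizontal axis) of each probe set of the keratins with several, for UGE minus UGM (green) and epidermis minus dermis (red), with the brightest probe set first for each gene. The green point of Krt6a lies at 6.01 for 1 probe set and at 2.58 and 2.34 for the other 2, while both Krt4 probe sets lie above 6.5.

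For Krt14 a second probe set gave 4.90 ± 0.14 between UGE and UGM and 0.82 ± 0.31 in the skin, close to the first. Another Krt14 probe set stayed between 4.74 and 6.45 in all samples, and the second Krt17 probe set between 4.36 and 5.62, and neither was called in any of these comparisons of 2 groups. The probe set shared by Krt14 and Krt17 lay between 4.79 and 5.95.

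By the profile over the 19 samples, each centred on its own mean, the genes outside the member list most like each keratin were found by their root mean square difference in log2 units. Krt5 was nearest to Perp, a desmosomal membrane protein (0.37), and to Dsp, desmoplakin, which ties keratins to the desmosome (0.42). Krt14 was nearest to Col17a1, a hemidesmosomal collagen (0.69), and Asprv1, a protease of the upper epidermis (0.75). Krt17 was nearest to Pkp1, a desmosomal plakophilin (0.45), and Irx2 (0.51). Krt15 was nearest to Ripk4, a kinase of keratinocyte differentiation (0.56), and Esrp1, an epithelial splicing factor (0.63), and Krt4 to Cldn23, a claudin (0.56), and Ripk4 (0.63).

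The suprabasal members had other neighbours. Krt77 was nearest to Cnfn, cornifelin of the cornified envelope (0.33), and Sdr16c5 (0.35), Krt1 to Krtdap, a secreted keratinocyte protein (0.56), and Capns2 (0.59), and Krt10 to Dsc3, a desmosomal cadherin (0.56), and Irx4 (0.69). Krt6a was nearest to Cers3, a ceramide synthase (0.54), and Grhl1, a transcription factor of surface epithelium (0.54), and Krt13 to Vsig8 (0.44) and Krt23 (0.45). Among the members themselves Krt4 and Krt15 were nearest to each other (0.75), Krt5 and Krt17 to each other (0.66), and Krt10 and Krt77 to each other (0.73), while Krt4 and Krt10 lay farthest apart (3.45).

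Other keratins were counted in lists. The first list held 12 further keratins of stratified epithelium, of which 3 were higher in UGE than in UGM, 5 higher in epidermis than in dermis, and none lower in either comparison. Krt75, a type II keratin of the hair follicle companion layer, was higher in UGE than in UGM (4.15 ± 0.19) and than in epidermis (4.54 ± 0.17), and was not called in the skin (-0.08 ± 0.12, adjusted p = 0.654). It was the only 1 of the 12 higher in UGE than in epidermis, where 6 were lower, with Krt23 (-2.64 ± 0.29) and Krt80 (-1.87 ± 0.20) having the largest differences. Of 17 hair keratins none was called between UGE and UGM or between epidermis and dermis by limma, where 5 and 4 had an unadjusted p under 0.05.

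The keratins of simple epithelium were mostly higher in UGE than in epidermis. Of Krt7, Krt8, Krt18, Krt19 and Krt20, all but Krt20 were higher in both epithelia than in their mesenchyme, and the same 4 were higher in UGE than in epidermis. Krt18 and Krt8, the partners of simple epithelial filaments, were higher in UGE than in epidermis by 3.69 ± 0.24 and 3.05 ± 0.26. Krt18 (2.96 ± 0.25) and Krt8 (1.08 ± 0.27) were also higher in UGM than in dermis, while Krt7 (-1.05 ± 0.38), Krt19 (-0.97 ± 0.40) and Krt20 (-0.20 ± 0.17) were not called there. None of the 10 members was called higher in either of these 2 comparisons, which is near the share of all probe sets given above.

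Transcripts of the proteins that hold keratin filaments at the membrane were mostly higher in the epithelium than in the mesenchyme at both sites. Of 13 linkers of desmosome and hemidesmosome, 12 were higher in UGE over UGM (median 3.87) and 8 in epidermis over dermis (median 1.10). Perp and Dsp had the largest urogenital differences, 6.00 ± 0.29 and 5.21 ± 0.30. In UGE 7 of the 13 were lower than in epidermis, with Evpl, envoplakin, at -2.02 ± 0.31, and Pkp2, a plakophilin of simple epithelia and heart, was the 1 that was higher (3.48 ± 0.14). The interaction was positive for 10 of the 13 and negative for none, as for Dsp (4.58 ± 0.39) and Perp (4.85 ± 0.42).

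Of 15 measured regulators of stratified epithelium, 14 were higher in UGE than in UGM and 14 higher in epidermis than in dermis. Trp63, the p63 factor that basal keratinocytes depend on, stood 6.25 ± 0.34 higher in UGE than in UGM and differed from epidermis by -0.53 ± 0.34 (adjusted p = 0.235). Klf4, a factor of the skin barrier, was lower in UGE than in epidermis by -3.46 ± 0.17 log2, as were Grhl1, Zfp750 and Ovol1, while Ehf, an epithelial ETS factor, was higher (3.67 ± 0.47). Of 15 measured genes of the cornified envelope and upper layers, 12 were lower in UGE than in epidermis (median -3.46). The largest of these differences were those of Hrnr, hornerin (-9.50 ± 0.38), and Dsc1, a desmosomal cadherin of upper layers (-9.01 ± 0.34).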

How the data were processed

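The data are 19 samples, 1 MOE430 2.0 array each, and the deposited table holds linear intensity values per probe set that the authors had already normalized between arrays. GCOS 1.4 is named in the submitters' processing notes, and the methods also name MAS5 and PLIER, and the step that made the table is not given in the sources used. Array medians lay between 76.2 and 81.6 and values between 7.40 and 33141, and the number of arrays limits the precision. Detection calls were not used.

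Intensities were put on the log2 scale without a pseudocount. The array has 45101 probe sets, 64 of them controls that were not tested, and the test covered the 41549 others that exceeded 20 in any sample. In the annotation 34945 probe sets have 1 gene symbol, 932 several and 9160 none. The brightest tested probe set, by its mean log2 value over all samples, stands for a gene. limma 3.58.1 (R 4.3.3; lmFit and eBayes, two-sided, Benjamini-Hochberg over all tested probe sets) was fitted to UGE with UGM and to epidermis with dermis in their own samples, while UGE against epidermis, UGM against dermis and the interaction came from 1 fit of the 4 groups. Called means an adjusted p under 0.01 and a fold over 2. The procedure was tested on simulated data. Python 3.11.15 was used for the promoters and profiles.

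The text names all 10 members, the 2 nearest genes of each by profile, and of every other list the counts with up to 4 called genes of largest change, a few of these lists' genes that were not called being named after their values were seen, as were the motifs of the promoter windows. The members and lists were chosen with earlier results of these data known. Deviations of same-numbered epidermis and dermis samples had weak positive correlations (0.343, 0.108, 0.264 and 0.168 for replicates 1 to 4). Epidermis replicate 2 was closer to dermis replicate 3 (0.299). In UGE and UGM the correlations ran from -0.406 to 0.648, the highest being that of replicate 1. The labels do not give a pairing, and these values do not establish one. Alternatives covered normalization, pseudocount, filter, test, threshold, probe set choice, the replicate block and left-out samples.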

Additional observations from a re-analysis of the deposited data

Results flagged for a closer look

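A single sample stood far from the rest of its group in 5 of the 40 combinations of a keratin and a group that were searched, and chance alone marks about 1 in 20 groups. UGM replicate 2 was far above the other UGM samples for Krt5 (8.78, the next at 7.11), Krt4 (8.84, the next at 6.65) and Krt15 (9.85, the next at 7.10), and it also had the highest median of the general epithelial markers in UGM (7.36). The part of epithelial cells in these values was not tested. UGE replicate 6 was far above the other UGE samples for Krt13 (6.41, the next at 5.50), and epidermis replicate 3 was far below the other epidermis samples for Krt1 (13.55, the next at 14.02).

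The difference between epithelium and mesenchyme was unequal at the 2 sites by limma's interaction test for Krt5 (5.03), Krt14 (4.81), Krt15 (5.54), Krt4 (4.45), Krt6a (2.88), Krt17 (3.73) and Krt1 (1.79), where it was larger in the urogenital sinus, and for Krt13 (-1.94) and Krt77 (-2.06), where it was larger in the skin. The keratin levels of dermis, which enter each of these values, were highest in dermis replicate 1, and so were its general epithelial markers (9.07, the other dermis samples 7.85 to 8.27). Without both UGM replicate 2 and dermis replicate 1 the interaction was 5.24 for Krt5, 4.84 for Krt14, 5.98 for Krt15, 4.66 for Krt4, 2.60 for Krt6a, 3.51 for Krt17, 1.69 for Krt1, -2.20 for Krt13 and -2.60 for Krt77, and all 9 were called. With single samples left out in turn, Krt13 was called in 5, Krt77 in 3 and Krt1 in 13 of 19 fits. The other Krt6a probe sets had interactions of -0.46 and -0.14, which were not called.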

How the results depend on the processing

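Each member's fold change was recomputed under the alternatives, 1175 values in all, and 1102 kept their direction and their side of the threshold, 66 calls were lost, 7 were gained and no direction turned. No call changed between UGE and UGM or between UGM and dermis, 3 changed between UGE and epidermis, 22 between epidermis and dermis and 48 in the interaction. With the methods' t-test 1 member, Krt6a, was called between epidermis and dermis, and with limma's treat, which tests for more than 2-fold, 0 were called there (4 at an unadjusted p under 0.05), against 5, and 5 in the interaction, against 9. The t-test was not run for the interaction. Leaving out 1 sample, 4 to 7 members were called between epidermis and dermis and 6 to 8 in the interaction, and 7, 6 to 7 and 9 for UGE against UGM, UGE against epidermis and UGM against dermis. With the replicate number as a block the counts of members were 7, 5, 6 and 9 for the 4 comparisons of 2 groups and 7 for the interaction, and no call changed other than those of Krt1 and Krt77 in the interaction. With log2(value + 50) the interaction calls of Krt6a and Krt1 were lost (1.49 and 1.03).

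Over all probe sets the counts were 5506, 5681, 4984, 5049 and 3870 for UGE against UGM, epidermis against dermis, UGE against epidermis, UGM against dermis and the interaction, and 2524, 1434, 1685, 1627 and 1083 with treat, and 3354, 3317, 2834, 2880 and 2351 with the probe sets of a gene averaged, which leaves 26032 features. With log2(value + 50) the middle 3 were 3686, 3296 and 3140. UGM values near the lower quartile of the arrays limit Krt6a, Krt13, Krt14, Krt17 and Krt77, whose fold changes there may be too small. Low UGE values of Krt13 and Krt77 and low dermis values of Krt13 (5.26 to 6.36) do so too. In epidermis Krt10 lay close to the top of the scale. Whether that limits the differences of Krt10, Krt5, Krt1 and other keratins bright in epidermis was not tested.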
